A study of Homo sapiens with 12 samples.

Results

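The genes described here build, start and run the DNA replication fork. They were a list of 51 gene symbols grouped by role, and each matched 1 row among the 61541 Ensembl genes of the count table. The list was chosen with earlier results of these data known, so its shares of calls are descriptive. All 51 passed the filter on low counts, which kept 16768 genes. By role there were 11 genes of origin recognition and licensing, 8 of origin firing and the replicative helicase, 6 of the sliding clamp and its loader, 9 polymerase and primase subunits, 5 of single-strand binding and Okazaki fragment maturation, 6 of chromatin assembly and maintenance methylation, and 6 E2F factors and E-type cyclins.

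RNA was sequenced from 12 libraries of A549, an established line from a human lung adenocarcinoma, in 4 groups of 3 libraries. Control cells carried a non-targeting guide (gNTC1; genotype NTC KO) and knockout cells had been made by Cas9 directed at TYMS (TS-KO; genotype TYMS KO), and each kind was grown alone or in co-culture. All 12 libraries were of untreated cells 14 days after transduction, in serum-containing DMEM. The series text names parental A549 cells as the companions of the co-cultured knockout cells and describes the proliferation of those cells as restored. The labels do not give the companion of the co-cultured control cells, whether companions were removed before RNA was taken, or whether the knockout cells were a pool or a clone. They also do not say whether the replicates were separate cultures, so the p-values below measure only the spread between these libraries.

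TYMS encodes thymidylate synthase, which makes the thymidylate that DNA polymerases need. Before S phase, the origin recognition complex, CDC6 and CDT1 load the ring of MCM2 to MCM7 onto origins, a step called licensing that geminin (GMNN) restrains. The kinase CDC7 with DBF4, together with MCM10, CDC45 and the GINS complex, then turns the ring into the active helicase, and RFC loads the PCNA clamp for the polymerases. Many of these genes are transcribed at the entry into S phase under the E2F factors, among them the activators E2F1 and E2F2 and the repressors E2F7 and E2F8, with cyclin E acting beside them.

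Sequences upstream of 6 members are shown that hold the motif of the E2F factors, which are members themselves. They were chosen in part by the test results below. Eligible were members called in the same direction in at least 2 comparisons, with a match in the bases shown and at most 30 exon bases there. The first 6 by p in knockout against control alone were kept. RefSeq promoter windows on GRCh38.p14, from 250 bases before to 50 after a gene's start, were at hand for 43 of the 51 members. An E2F motif (TTTCCCGC, TTTGGCGC, TTTCGCGC or TTTGCCGC, on either strand) stood in the window of 22 of those 43 members (51.2%), against 1090 of 27305 genes with a window (3.99%). The CCAAT box (CCAAT, either strand) stood in 24 of 43 members (55.8%) against 39.7% of all genes. The CHR element (TTTGAA, either strand), known from genes of later cell cycle phases, stood in 2 of 43 members (4.65%), ASF1B and DBF4, against 18.2% of all genes. Each line gives the 160 bases before the start, 5′ to 3′ on the gene's own strand, with E2F matches in capitals. The activators E2F2 and E2F1, the leading-strand polymerase POLE, the methylation reader UHRF1, the helicase subunit MCM6 and the polymerase subunit POLA1 were taken. Their windows were chr1:23531234-23531393, minus strand (E2F2), chr20:33686386-33686545, minus strand (E2F1), chr12:132687343-132687502, minus strand (POLE), chr19:4909984-4910143, plus strand (UHRF1, one of its annotated starts), chr2:135876444-135876603, minus strand (MCM6) and chrX:24693758-24693917, plus strand (POLA1).
E2F2: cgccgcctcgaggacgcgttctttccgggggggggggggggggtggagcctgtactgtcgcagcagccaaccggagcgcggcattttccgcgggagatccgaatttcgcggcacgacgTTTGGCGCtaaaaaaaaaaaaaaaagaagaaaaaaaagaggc
E2F1: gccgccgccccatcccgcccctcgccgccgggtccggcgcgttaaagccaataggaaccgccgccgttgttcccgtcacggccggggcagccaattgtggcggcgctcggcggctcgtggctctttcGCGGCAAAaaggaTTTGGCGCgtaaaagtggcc
POLE: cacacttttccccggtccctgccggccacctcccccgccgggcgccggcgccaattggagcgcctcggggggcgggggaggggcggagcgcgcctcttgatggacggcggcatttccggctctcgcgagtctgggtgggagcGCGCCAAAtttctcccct
UHRF1: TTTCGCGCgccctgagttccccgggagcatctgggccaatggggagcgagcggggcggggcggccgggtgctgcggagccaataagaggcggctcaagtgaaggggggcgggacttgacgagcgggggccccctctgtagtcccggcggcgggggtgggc
MCM6: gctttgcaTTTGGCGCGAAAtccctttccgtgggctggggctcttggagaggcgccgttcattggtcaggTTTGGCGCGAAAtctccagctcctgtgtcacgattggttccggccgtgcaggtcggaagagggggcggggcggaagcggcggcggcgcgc
POLA1: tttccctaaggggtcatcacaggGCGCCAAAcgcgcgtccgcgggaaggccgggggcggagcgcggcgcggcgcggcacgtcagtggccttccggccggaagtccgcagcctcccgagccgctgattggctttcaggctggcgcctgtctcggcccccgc

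The MCM6 stretch held 4 matches in 2 overlapping pairs, each pair reading as 1 motif on the gene's strand and 1 on the other. E2F1 held 2 separate matches close to its start, and the other 4 sequences held 1 each. A match is a string of letters and was not tested as a binding site. As described below, E2F2, E2F1, POLE and UHRF1 were called lower in the knockout grown alone while MCM6 and POLA1 were not. Over the list, the motif stood in 13 of 27 members called lower there (48.1%) and in 9 of 16 not called (56.2%).

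TYMS, the targeted gene, stood at 90.2, 101 and 95.1 CPM (TMM-scaled counts per 1e6 counts) in the lone control and at 20.3, 20.9 and 21.3 CPM in the lone knockout. In co-culture it stood at 90.4, 94.1 and 95.6 CPM in control and at 11.4, 10.99 and 10.7 CPM in knockout libraries, so every knockout library lay below every control library. A549 is known for the loss of CDKN2A, CDKN2B and MTAP. Their summed level was 154 to 165 CPM in the lone and 122 to 142 CPM in the co-cultured libraries labelled control, against 0.547 to 0.647 and 0.302 to 0.745 CPM in the lone and co-cultured knockout libraries. The 6 libraries labelled control therefore go against the A549 label at these genes. The summed level of 10 NRF2 and detoxification genes known to be high in A549 was 7349 to 8600 and 6857 to 8492 CPM in lone and co-cultured control libraries, and 16355 to 17316 and 16089 to 16868 CPM in lone and co-cultured knockout libraries. EPCAM, an epithelial surface marker, lay at 94.3 to 119 CPM in the lone control and at 0.398 to 0.912 CPM in the lone knockout. The other epithelial markers, the keratins KRT7, KRT8, KRT18 and KRT19 and the cadherin CDH1, were above 15 CPM in all 12 libraries, but at unlike levels. In mean CPM per kb of exon, KRT19 stood at 744 in the lone control and 109 in the lone knockout, and CDH1 at 9.03 and 2.83. KRT8 stood at 1041 and 541 and KRT18 at 949 and 702, while KRT7 was higher in the knockout, at 466 and 1453. Hence knockout and the origin of the culture cannot be told apart wherever knockout is set against control, and no value without these libraries can be given for those comparisons. Comparisons of co-cultured with lone cells stay within 1 label, but the interaction sets both labels against each other and shares this limit.

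Markers of 5 leukocyte, 5 fibroblast and 4 endothelial genes were low throughout. The summed leukocyte markers reached 6.85 CPM at most, with CD3E at 0 in all 12 libraries, and the endothelial sum 2.73 CPM. The fibroblast sum of 10.9 to 24.4 CPM was nearly all COL1A1. Library totals ran from 14921371 to 35723762 counts, the biological coefficient of variation was 22.1%, and the members held between 11 counts (CCNE2) and 26460 counts (MCM7) per library. Replicates differed from their group mean along the GC content of the transcripts: across 16505 genes, which are not independent, Spearman's rho ran from -0.772 in replicate 3 to 0.753 in replicate 2 of the co-cultured knockout. The members covered a wide GC range, from 38.5% to 65.2% with a median of 49.0%, so values recomputed with GC offsets are given beside the results they move. These offsets were taken against the mean of all 12 libraries, not of each group. They therefore also remove differences between groups that follow GC, and are no correction of the replicates only.

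The comparison of knockout with control cells, both grown alone, asked how expression differed between the cells of these labels. Loss of TYMS and the origin of the culture cannot be told apart in it. Most of the replication genes were lower in the knockout. At an adjusted p under 0.05 in edgeR, 30 of 51 members were called lower (58.8%) and 0 higher, where 28.6% of all genes tested were called lower, 28% higher and 56.6% either way. Their median log2 fold change was -0.60, against 0.09 over all genes tested. In 35 members all 3 knockout libraries lay below all 3 control libraries (31.5% of all genes), and in 1 member, PCNA, all 3 lay above (33.8% of all genes). PCNA was also the 1 member with a higher value at an unadjusted p under 0.05. These are bulk libraries, in which fewer cells in S phase and less RNA per cell cannot be told apart.

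**Figure D1:**
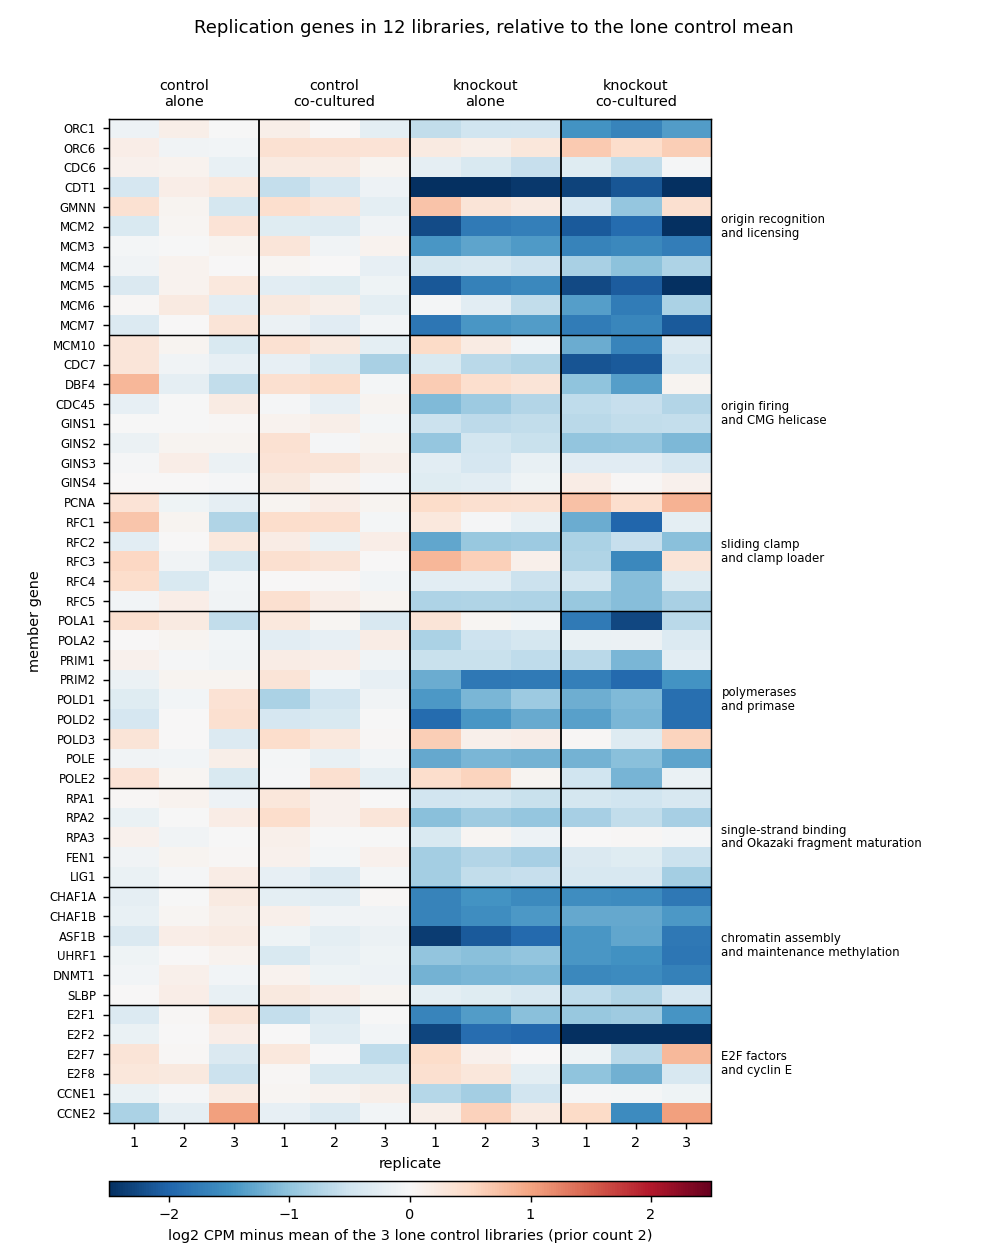
Level of each of the 51 members (rows, in blocks by role) in each of the 12 libraries (columns), as log2 CPM minus the mean of the 3 lone control libraries, with a prior count of 2. Colours stop at 2.5 on either side. The 6 knockout libraries are blue over most rows, and the median member lies at -0.62, -0.56 and -0.58 in the lone and at -0.94, -1.09 and -0.68 in the co-cultured knockout libraries.

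Among the licensing genes, 7 of 11 were called lower. CDT1 (ENSG00000167513, GRCh38 chromosome 16, 88803213 to 88809258, plus strand), the factor that brings the MCM ring to origins, stood at 293, 443 and 470.1 CPM in the lone control and at 53.6, 64.1 and 74.2 CPM in the lone knockout libraries. It was 6.29-fold lower (a log2 change of -2.65 with an SE of 0.25, adjusted p in edgeR = 2.24e-06), the lowest fold change in the list. The control libraries varied by more than the knockout ones, and the groups stayed far apart. MCM3 (ENSG00000112118, GRCh38 chromosome 6, 52264009 to 52284881, minus strand), a subunit of the ring, stood at 262, 267 and 282 CPM in control and at 98.4, 108 and 102 CPM in knockout, 2.64-fold lower (a log2 change of -1.40 with an SE of 0.13, adjusted p in edgeR = 1.35e-06). Both groups were tight for MCM3 and did not overlap. Of the other ring subunits, MCM2, MCM5 and MCM7 were called lower at -1.92, -1.82 and -1.57, and MCM4 at -0.46 (log2 fold changes, as are the other signed values given without a unit). MCM6 stood at 77.6, 88.98 and 63.1 CPM in control and 73.6, 63.3 and 49.4 CPM in knockout, with overlapping groups (-0.30, edgeR adjusted p = 0.296). So 5 of the 6 ring subunits passed the test, with unequal fold changes. The call of MCM4 was lost in 2 of 14 alternatives, scaling by library size only and no filter on low counts, with adjusted p up to 0.0991. ORC1, the ATPase subunit of the origin recognition complex, was called lower at -0.54, a call lost with scaling by library size only (adjusted p = 0.0863). ORC6, another subunit of that complex, stood at 0.21 (edgeR adjusted p = 0.173) and the loader CDC6 at -0.39 (edgeR adjusted p = 0.0526). Geminin, the inhibitor of CDT1, stood at 13.6, 10.8 and 7.64 CPM in control and 17.1, 12.9 and 12.2 CPM in knockout (0.40, edgeR adjusted p = 0.32). The groups of the inhibitor overlapped, while those of its target CDT1 did not. CDC6 was called lower without replicate 3 of the lone control or replicate 1 of the lone knockout. The same call came with DESeq2 size factors, DESeq2's Wald test, only the groups compared, and GC offsets with or without a replicate block.

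Of the 8 firing and helicase genes, 3 were called lower. CDC45, the helicase cofactor, stood at 38.9, 44.5 and 51.2 CPM in the lone control and at 20.8, 23.8 and 26.7 CPM in the lone knockout (a log2 change of -0.92 with an SE of 0.15, adjusted p in edgeR = 0.000187). GINS1, a subunit of the GINS complex, stood at 79.1, 79.3 and 81.02 CPM and 54.6, 50.9 and 52.3 CPM (a log2 change of -0.60 with an SE of 0.11, adjusted p in edgeR = 0.000429). Neither gene's groups overlapped. GINS2 was called lower at -0.65, whereas GINS3 and GINS4 stood at -0.29 and -0.22 and did not pass, so that 2 of 4 GINS subunits were called. The firing factor MCM10 (0.20) and the kinase subunits CDC7 (-0.62) and DBF4 (0.34) did not pass either. CDC7 and DBF4 had few counts, at 2.78 to 3.96 and 3.33 to 9.16 CPM in the lone control, which limits their precision.

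The clamp and its loader behaved unevenly. RFC2 stood at 92.1, 110.4 and 131 CPM in control and 44.6, 57.4 and 58.7 CPM in knockout (a log2 change of -1.06 with an SE of 0.18, adjusted p in edgeR = 0.000273). RFC5 stood at 50.8, 59.3 and 49.8 CPM and 31.0, 31.6 and 31.2 CPM (a log2 change of -0.77 with an SE of 0.13, adjusted p in edgeR = 0.000317). These 2 of the 5 loader subunits were called lower. The large subunit RFC1 stood at -0.08 (edgeR adjusted p = 0.872), RFC3 at 0.51 (edgeR adjusted p = 0.305) and RFC4 at -0.39 (edgeR adjusted p = 0.181). PCNA, the clamp itself and also a known p53 target, stood at 208, 154 and 141 CPM in control and at 226, 219 and 215 CPM in knockout libraries. Its knockout libraries lay above the highest control library by a small margin, and the test did not call it (a log2 change of 0.39 with an SE of 0.16, adjusted p in edgeR = 0.0535). It was called higher without replicate 1 of the lone control and by DESeq2, and with GC offsets its value was -0.037.

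Of the 9 polymerase and primase genes, 6 were called lower. POLE, the catalytic subunit of the leading-strand polymerase, stood at 180.2, 183 and 211 CPM in control and 78.1, 86.7 and 83.7 CPM in knockout (a log2 change of -1.21 with an SE of 0.13, adjusted p in edgeR = 4.19e-06). PRIM2, the large primase subunit, stood at 26.4, 30.8 and 30.6 CPM and 12.3, 8.41 and 8.51 CPM (a log2 change of -1.58 with an SE of 0.21, adjusted p in edgeR = 3.58e-05). Both pairs of groups were separate, and PRIM2, at a transcript GC content of 38.8%, was the member of lowest GC among those called. The lagging-strand polymerase subunits POLD1 and POLD2 were called lower at -1.17 and -1.56. POLA2 (-0.58) and PRIM1 (-0.59) were called with less certainty: PRIM1 lost the call in 7 of 14 alternatives, up to an adjusted p of 0.178, and POLA2 in 4 of 14, up to 0.0832. POLA2 lost it without replicate 2 of the lone control or replicate 1 of the lone knockout, and PRIM1 on leaving out replicate 1 or 2 of the lone control or any lone knockout library. POLA1, the catalytic subunit that extends primers, stood at 0.05 (edgeR adjusted p = 0.912), POLD3 at 0.30 (edgeR adjusted p = 0.334) and POLE2 at 0.35 (edgeR adjusted p = 0.336).

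RPA coats the single strands at a fork, and FEN1 and LIG1 trim and join Okazaki fragments. RPA2 stood at 71.7, 80.1 and 91.01 CPM in control and 38.9, 43.3 and 41.4 CPM in knockout (a log2 change of -0.97 with an SE of 0.14, adjusted p in edgeR = 6.03e-05). FEN1 stood at 149, 167 and 163 CPM and 88.3, 96.05 and 89.6 CPM (a log2 change of -0.81 with an SE of 0.12, adjusted p in edgeR = 8.86e-05). In both genes the knockout libraries formed a separate, narrow group. RPA1 and LIG1 were called lower at -0.50 and -0.68, and RPA3 was not called (-0.15), so 4 of these 5 genes fell.

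In the chromatin group 5 of 6 genes were called lower. CHAF1B, a subunit of the histone chaperone CAF-1, stood at 62.5, 73.5 and 78.5 CPM in control and 22.2, 24.1 and 26.1 CPM in knockout (a log2 change of -1.57 with an SE of 0.13, adjusted p in edgeR = 7.08e-07). ASF1B, which hands histones to CAF-1, stood at 128, 185 and 192 CPM and 31.97, 38.8 and 43.2 CPM, 4.44-fold lower (a log2 change of -2.15 with an SE of 0.19, adjusted p in edgeR = 9.37e-07). The largest knockout value of ASF1B was well under its smallest control value. CHAF1A, the large CAF-1 subunit, was called at -1.59, the maintenance methyltransferase DNMT1 at -1.16 and its recruiter UHRF1 at -1.01. SLBP, which binds the stem-loop of histone mRNA, stood at -0.32 (edgeR adjusted p = 0.0589). It was called without replicate 3 of the lone control, with DESeq2 size factors, by DESeq2's Wald test and with GC offsets. The remaining alternatives did not call it, save GC offsets joined with a replicate block.

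Of the 6 E2F and cyclin E genes, 3 were called lower. E2F2 (ENSG00000007968, GRCh38 chromosome 1, 23506430 to 23531220, minus strand) stood at 49.2, 55.2 and 61.9 CPM in control and 11.2, 14.8 and 14.2 CPM in knockout, 4.14-fold lower (a log2 change of -2.05 with an SE of 0.16, adjusted p in edgeR = 2.37e-07). E2F1 stood at 106, 138 and 169 CPM and 43.2, 51.2 and 65.3 CPM (a log2 change of -1.37 with an SE of 0.23, adjusted p in edgeR = 0.000251). Both activators were called lower without overlap. The repressors E2F7 and E2F8 stood at 0.18 (edgeR adjusted p = 0.684) and 0.14 (edgeR adjusted p = 0.717). A difference between activators and repressors was not tested. CCNE1, an E-type cyclin gene, was called lower at -0.68. CCNE2 had the fewest counts of the members, at 0.681 to 2.62 CPM in control and 1.395 to 1.89 CPM in knockout, and was not called (0.11).

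The members called lower had richer GC than the others. Median transcript GC was 53.6% in the 30 called lower and 44.3% in the 21 not called. Of the 26 members at or above the list's median GC 24 were called lower, and of the 25 below it 6 were. GC offsets remove each library's trend with GC, between groups as well as between replicates, and the 2 parts were not separated. With them the calls were 26 of 26 and 14 of 25, all lower. That made 40 of 51 in all (78.4%), where 33.4% of all genes were called lower. The median log2 fold change of the GC-poor members went from -0.08 to -0.63 under the offsets, and that of the GC-rich members from -1.11 to -0.98. The 10 members gained were CDC6, CDC7, GINS3, GINS4, MCM6, POLA1, RFC1, RFC4, RPA3 and SLBP, while all 30 calls remained. Under the offsets all 6 ring subunits, all 4 GINS subunits, all 3 RPA subunits and all 4 subunits of polymerase alpha and primase were called, POLA1 not so once a replicate block was added. RFC3, POLD3 and POLE2 stayed without a call, so that 4 of 5 loader subunits were called. Of the listed subunits, 2 of 3 of polymerase delta and 1 of 2 of polymerase epsilon were called. POLD4, POLE3 and POLE4 are not in the list and not in these counts.

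**Figure D2:**
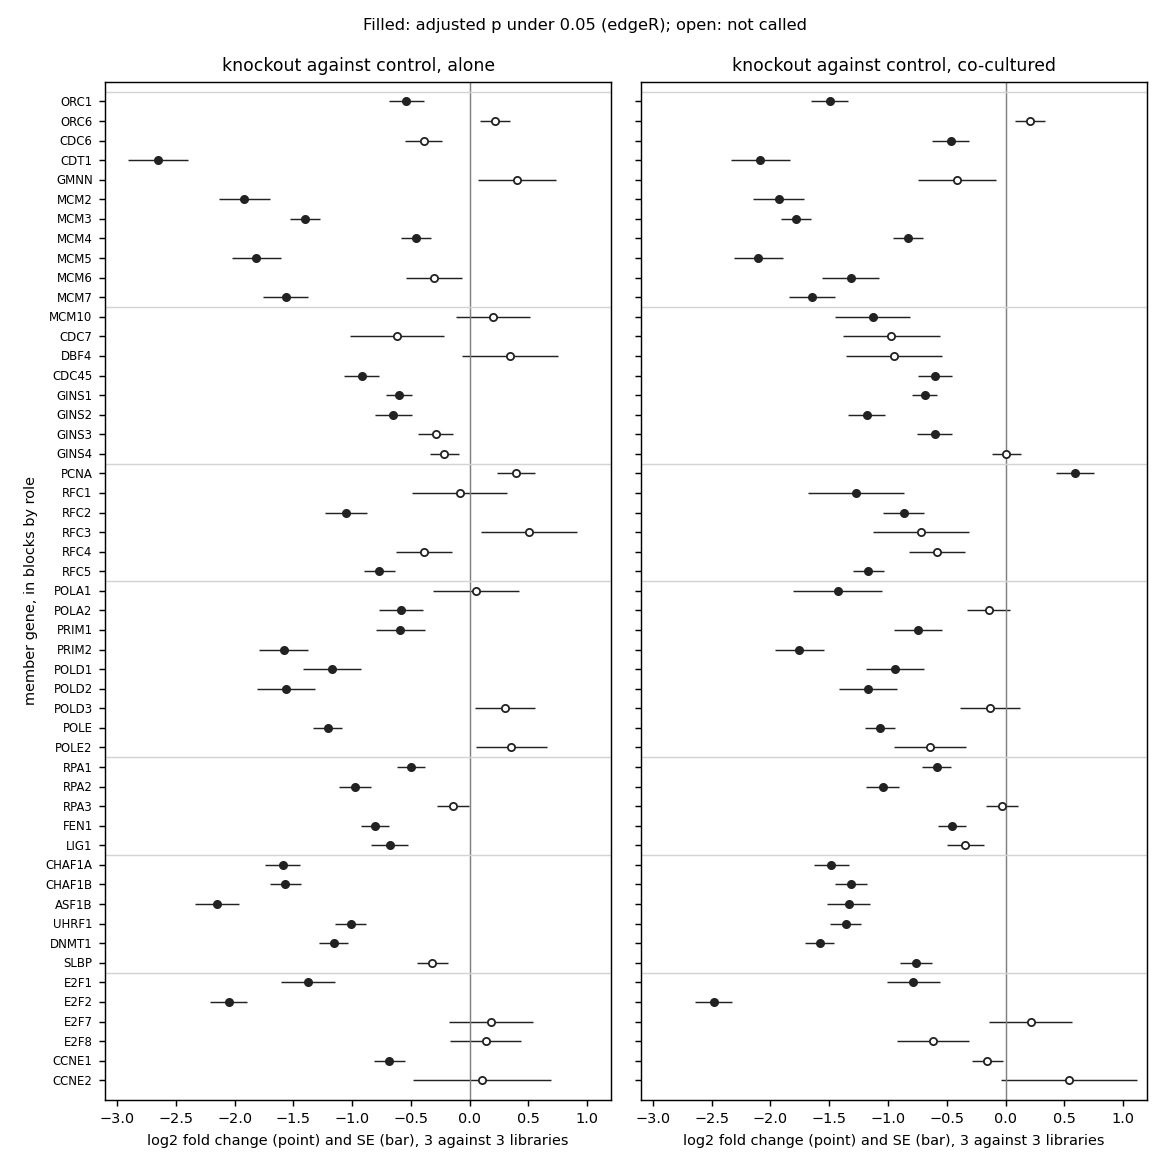
Log2 fold change (points) and SE (bars) of each member for knockout against control, grown alone (left) and co-cultured (right), 3 against 3 libraries. Filled points were called at an edgeR adjusted p under 0.05: 30 lower on the left, and 34 lower with PCNA higher on the right.

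The knockout and control cells in co-culture gave a comparison that shares no library with the one above, though it sets the same kinds of cell apart. There, 34 of 51 members were called lower and 1 higher, where 25.3% of all genes tested were called lower and 24.1% higher. The median log2 fold change was -0.87, against -0.02 over all genes tested. Of the members called lower alone, 27 of 30 (90%) were called lower in co-culture, and these 27 were 79.4% of the 34. The matching overlap over all genes tested is not given here, so these shares cannot be read as a trait of the list. POLA2, LIG1 and CCNE1 were called alone and not in co-culture, and CDC6, GINS3, MCM6, MCM10, POLA1, RFC1 and SLBP in co-culture and not alone. Whether those genes differed between the comparisons is the interaction given below.

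By role, 9 of 11 licensing genes, 5 of 8 firing and helicase genes, 3 of 6 clamp and loader genes, 6 of 9 polymerase and primase genes, 3 of 5 genes of single-strand binding and Okazaki fragments, 6 of 6 chromatin genes and 2 of 6 E2F and cyclin E genes were lower. E2F2 stood at 55.6, 45.95 and 52.5 CPM in co-cultured control and 9.22, 9.74 and 8.54 CPM in co-cultured knockout, 5.59-fold lower (a log2 change of -2.48 with an SE of 0.16, adjusted p in edgeR = 5.34e-08). MCM5 stood at 412, 402 and 461 CPM and 103, 117 and 76.1 CPM, 4.302-fold lower (a log2 change of -2.11 with an SE of 0.21, adjusted p in edgeR = 3.47e-06). The remaining ring subunits were all called too, so that 6 of 6 passed, MCM3 among them at 333, 255 and 288 CPM in control and 84.9, 88.7 and 81.3 CPM in knockout (a log2 change of -1.78 with an SE of 0.13, adjusted p in edgeR = 1.8e-07). In each of these genes the knockout libraries were far below the control libraries. DNMT1 stood at 341, 295 and 292 CPM and 104, 107 and 98.7 CPM (a log2 change of -1.58 with an SE of 0.12, adjusted p in edgeR = 3.13e-07). UHRF1 stood at 126, 145 and 153 CPM and 60.6, 57.9 and 47.01 CPM (a log2 change of -1.36 with an SE of 0.13, adjusted p in edgeR = 2.76e-06). These partners in copying DNA methylation were both called lower without overlap. CHAF1A of CAF-1 stood at 102, 101 and 123 CPM and 41.4, 40.3 and 34.9 CPM (a log2 change of -1.48 with an SE of 0.15, adjusted p in edgeR = 2.89e-06).

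PCNA was the member called higher. It stood at 173, 185 and 174 CPM in co-cultured control and 277, 222 and 303 CPM in co-cultured knockout, 1.51-fold higher (a log2 change of 0.59 with an SE of 0.16, adjusted p in edgeR = 0.00829). The call held in 14 of 14 alternatives, with adjusted p up to 0.0386. Calls of CDC6 were lost in 7 of 14 alternatives and those of RFC1 in 5 of 14, each among them on leaving out replicate 1 or 2 of either co-cultured group. Without replicate 3 of the co-cultured knockout CDC7, DBF4, E2F8, GMNN, POLE2, RFC3 and RFC4 were called as well, 42 members in all (82.4%, against 52.2% of all genes called), and LIG1 was called without replicate 2 of the co-cultured knockout. In 13 members neither comparison of knockout with control gave a call: ORC6, GMNN, CDC7, DBF4, GINS4, RFC3, RFC4, POLD3, POLE2, RPA3, E2F7, E2F8 and CCNE2.

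**Figure D3:**
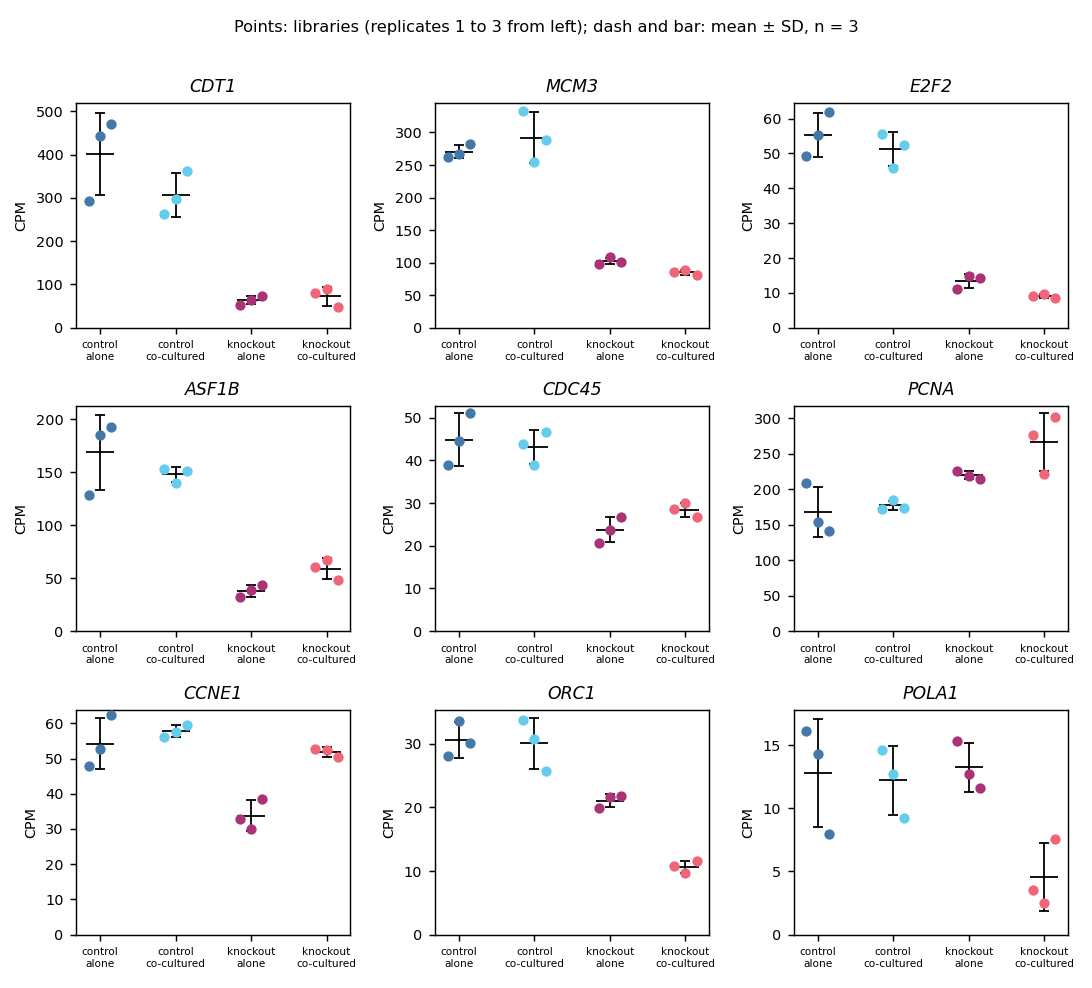
Level in CPM of 9 members in each library (points, replicates 1 to 3 from left to right) with the mean and SD of 3 libraries (dash and bar), by group. CDT1, MCM3, E2F2, ASF1B and CDC45 are lower in both knockout groups, PCNA has its highest mean in the co-cultured knockout, CCNE1 is lowest in the lone knockout, and ORC1 and POLA1 are lowest in the co-cultured knockout.

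Setting knockout cells in co-culture against those grown alone bears on what accompanies the restored proliferation that the series text describes. Of 51 members, 8 were called lower in co-culture and 3 higher, where 5.4% of all genes tested were called lower, 5.97% higher and 11.4% either way. The median log2 fold change was -0.14, against 0.01 over all genes tested. The 8 lower were ORC1, MCM6, MCM10, POLA1, UHRF1, DNMT1, E2F2 and E2F8, and the 3 higher were CCNE1, ASF1B and FEN1. This comparison and those above share knockout libraries, so their values are only set side by side here.

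ORC1 (ENSG00000085840, GRCh38 chromosome 1, 52372829 to 52404459, minus strand) stood at 19.9, 21.6 and 21.8 CPM in the lone and 10.8, 9.62 and 11.6 CPM in the co-cultured knockout, 1.98-fold lower (a log2 change of -0.98 with an SE of 0.15, adjusted p in edgeR = 0.00175). Its groups were tight and separate, and it was called in 14 of 14 alternatives with adjusted p up to 0.0221. MCM6 stood at 73.6, 63.3 and 49.4 CPM and 28.9, 22.6 and 43.95 CPM (a log2 change of -0.97 with an SE of 0.24, adjusted p in edgeR = 0.0252). POLA1 stood at 15.4, 12.7 and 11.6 CPM and 3.53, 2.47 and 7.605 CPM, 2.92-fold lower (a log2 change of -1.55 with an SE of 0.38, adjusted p in edgeR = 0.0235). In MCM6 and POLA1 replicate 3 of the co-cultured knockout lay nearest to the lone libraries, though below all of them. UHRF1 stood at 83.2, 79.8 and 83.4 CPM and 60.6, 57.9 and 47.01 CPM (a log2 change of -0.57 with an SE of 0.13, adjusted p in edgeR = 0.0166). DNMT1 stood at 140.0, 144 and 147 CPM and 104, 107 and 98.7 CPM (a log2 change of -0.47 with an SE of 0.12, adjusted p in edgeR = 0.0263). Both methylation genes were already lower in the lone knockout than in the lone control, and the co-cultured libraries lay lower still. MCM10 (-1.20), E2F2 (-0.55) and E2F8 (-1.03) completed the members called lower.

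CCNE1 moved the other way. It stood at 32.9, 29.99 and 38.5 CPM in the lone and 52.9, 52.3 and 50.4 CPM in the co-cultured knockout, 1.53-fold higher (a log2 change of 0.62 with an SE of 0.13, adjusted p in edgeR = 0.0131). The co-cultured knockout libraries lay within the range of the lone control, which held 47.8 to 62.2 CPM. ASF1B went from 31.97, 38.8 and 43.2 CPM to 60.8, 67.3 and 47.9 CPM (0.63) and FEN1 from 88.3, 96.05 and 89.6 CPM to 123, 129 and 110.3 CPM (0.41). Both remained under each lone control library, which held 128 to 192 CPM of ASF1B and 149 to 167 CPM of FEN1. Of the genes called lower in the lone knockout, CDT1 (0.18), MCM3 (-0.27) and CHAF1A (-0.06) were not called here.

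These calls rested on the libraries in the fit. The 10 members other than ORC1 each lost the call in 4 to 9 of 14 alternatives. With only the knockout libraries in the fit, and so without the libraries labelled control, 1 member was called, ORC1, and 4.22% of all genes. Leaving out replicate 1, 2 or 3 of the lone knockout gave 2, 1 and 6 called members, and leaving out replicate 1 or 2 of the co-cultured knockout gave 2 and 3, where 3.13% to 5.91% of all genes were called. Without replicate 3 of the co-cultured knockout 18 were called (35.3%), near the 33.4% of all genes called there. With GC offsets 29 were called (56.9%), 20 of them lower and 9 higher, and the calls of all 11 remained, while the share of all genes called rose from 11.4% to 30%. DESeq2's Wald test called 17 (33.3%), against 20% of all genes. Over the alternatives the median of the members ran from -0.24 to -0.02. TYMS itself was lower in the co-cultured knockout (a log2 change of -0.92 with an SE of 0.11, adjusted p in edgeR = 0.000307), and the sum of the leukocyte markers was 4.51 to 6.85 CPM there against 2.09 to 2.86 CPM in the lone knockout, with 2 of 5 markers, CD79A and CD68, at a mean of at least 1 CPM. Of the other leukocyte markers, PTPRC stood at 0.0011, LYZ at 0.067 and CD3E at 0 mean CPM per kb of exon in the co-cultured knockout. Another gene overlaps 81.7% of the exon length of CD68. The part of other cells in the result was not tested.

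**Figure D4:**
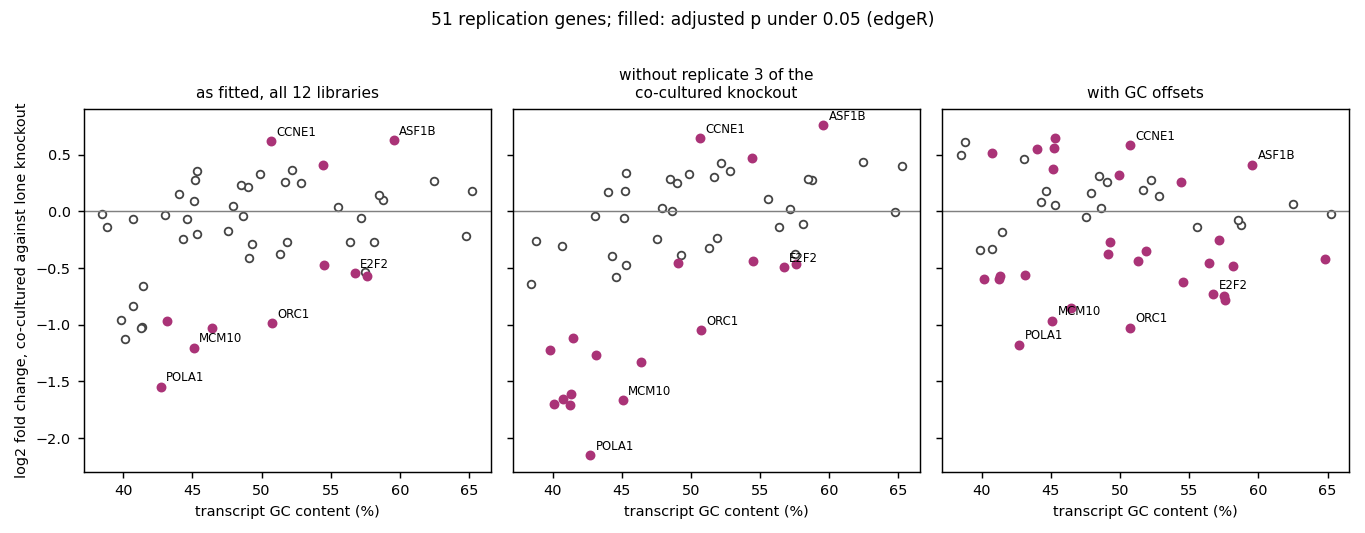
Log2 fold change of each member for co-cultured against lone knockout by transcript GC content, as fitted (left), without replicate 3 of the co-cultured knockout (middle) and with GC offsets (right). Filled points were called at an edgeR adjusted p under 0.05, 11, 18 and 29 in turn. The lowest values on the left and in the middle belong to GC-poor members, and ORC1 stays near the same value in all 3 panels.

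No member was called between co-cultured and lone control cells. edgeR called 0 of 51 members, as it called 0% of all genes tested, and DESeq2's Wald test also called 0. At an unadjusted p under 0.05 there was 1 member, ORC6, and there were 540 genes in all. ORC6 stood at 26.9, 22.8 and 22.9 CPM in the lone and 31.6, 31.0 and 30.7 CPM in the co-cultured control (0.36, edgeR adjusted p = 1). The 3 co-cultured libraries of ORC6 lay above the 3 lone ones, as in 4.48% of all genes, and those of UHRF1 lay below, as in 2.9%; no other member was free of overlap. The median log2 fold change of the members was 0.03, against -0.01 over all genes tested.

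The interaction asked whether co-culture moved a gene differently in cells labelled knockout than in those labelled control. Knockout and the origin of the culture cannot be told apart in it, and the companion of the control cells is not given. The test called 1 member, ORC1, lower, where 0.286% of all genes tested were called lower and 1.8% either way. ORC1 stood at 28.05, 33.7 and 30.2 CPM in the lone and 33.8, 30.7 and 25.8 CPM in the co-cultured control, with overlapping groups, against the decrease given above in knockout cells (a log2 change of -0.96 with an SE of 0.21, adjusted p in edgeR = 0.0402). The call was lost in 14 of 19 alternatives, with adjusted p up to 0.125, while the value stayed between -1.08 and -0.85. Without replicate 1 of the lone control ASF1B was called in its place. The call of ORC1 was lost on leaving out any of the 12 libraries except replicate 3 of either co-cultured group. At an unadjusted p under 0.05 there were 11 members (21.6%), near the 18.7% of all genes with either direction. The directions were unlike, with 9 of the 11 members lower and 2 higher. Over all genes 1682 of the 3135 with such a p were higher. For POLA1 (-1.48, edgeR adjusted p = 0.181), MCM10 (-1.33, edgeR adjusted p = 0.162), MCM6 (-1.02, edgeR adjusted p = 0.16) and CCNE1 (0.53, edgeR adjusted p = 0.182), a call in co-cultured against lone knockout was thus not shown to differ from control cells. With GC offsets 10 members were called (19.6%), against 9.26% of all genes. Without replicate 3 of the co-cultured knockout 10 were called as well, where 21.3% of all genes were. The median of the members in the interaction ran from -0.23 to 0.02 over the alternatives, so its sign was not stable.

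Subunits of 1 complex stood at unlike read levels, compared here per length as CPM per kb of exon. The length was that of all annotated exons of a gene merged, which can exceed the mRNA expressed by an unequal amount. GC was not corrected either, so orders and ratios between genes are rough. In the MCM ring, MCM7 was highest and MCM6 lowest in all 4 groups. MCM7 stood at 262 ± 58.7 CPM per kb (SD, n = 3) in the lone control and 88.5 ± 13.2 in the lone knockout, and MCM6 at 18.6 ± 3.15 and 15.1 ± 2.94. Their ratio was 14.1 in the lone control, 11.96 in the co-cultured control, 5.87 in the lone knockout and 9.504 in the co-cultured knockout. The order between them changed: in the lone control MCM2 (90.6 ± 21.9), MCM3 (74.1 ± 2.82) and MCM5 (68.9 ± 14.7) lay above MCM4 (38.8 ± 2.296), with those 3 within their spread. In the lone knockout MCM4 (28.2 ± 1.14), MCM3 (28.1 ± 1.33) and MCM2 (23.99 ± 4.44) were within their spread.

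For the clamp loader the order was RFC2, RFC5, RFC4, RFC3 and RFC1 from high to low in all 4 groups. RFC2 stood at 50.3 ± 8.89 and RFC1 at 2.45 ± 1.16 CPM per kb in the lone control, and RFC3 and RFC1 lay within their spread. In RPA, RPA2 (40.1 ± 4.799) led RPA1 (32.6 ± 2.56) in the lone control and RPA1 (23.1 ± 0.893) led RPA2 (20.4 ± 1.08) in the lone knockout, with RPA3 lowest in all 4 groups. In polymerase alpha-primase, PRIM1 was highest in all 4 groups, and POLA1 went from 2.09 ± 0.303 in the lone to 0.716 ± 0.428 in the co-cultured knockout. The clamp PCNA stood at 114 ± 24.2 in the lone control and 181 ± 28.1 in the co-cultured knockout.

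**Figure D5:**
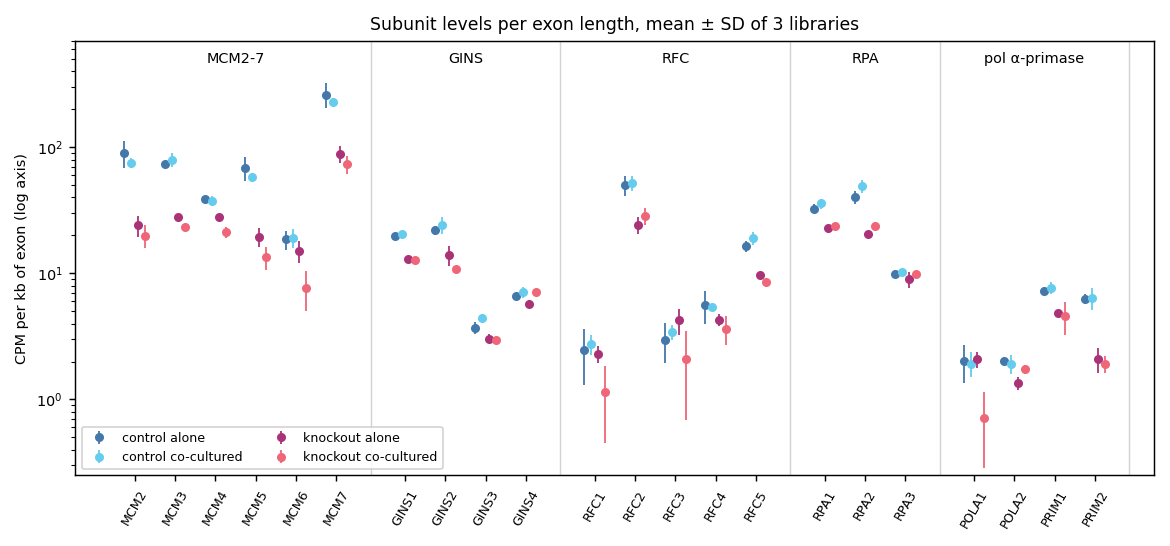
Mean and SD over 3 libraries of each subunit's level per kb of exon, on a log axis, for 5 complexes and 4 groups. MCM7 stands at the top and MCM6 at the bottom of the MCM ring in all groups, and RFC2 leads RFC.

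Other genes of the same pathway, 40 in number and not in the list, were read from the same fit. In knockout against control grown alone 13 were called lower (32.5%) and 4 higher (10%), where 28.6% and 28% of all genes were, and their median was 0.05 against 0.09 over all genes. In co-culture 19 were lower (47.5%) and 2 higher (5%), where 25.3% and 24.1% of all genes were, and the median was -0.81 against -0.02. CDK2, the kinase partner of cyclin E, stood at 78.4, 83.4 and 86.4 CPM in the lone control and 34.8, 35.3 and 32.03 CPM in the lone knockout (a log2 change of -1.28 with an SE of 0.11, adjusted p in edgeR = 8.33e-07). TONSL, which reads new histones behind the fork, was lower too (a log2 change of -1.88 with an SE of 0.20, adjusted p in edgeR = 4.6e-06). RNASEH1 (a log2 change of 0.93 with an SE of 0.20, adjusted p in edgeR = 0.00153), which removes RNA from RNA-DNA hybrids, and POLE4 (a log2 change of 0.93 with an SE of 0.24, adjusted p in edgeR = 0.00589), an accessory subunit of polymerase epsilon, were higher.

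Between co-cultured and lone knockout, 6 of these 40 genes were called lower (15%) and 1 higher (2.5%), where 5.4% and 5.97% of all genes were. DESeq2 called 13 lower and 1 higher, where it called 10.4% and 9.58% of all genes. The gene called higher was CDK2, at 34.8, 35.3 and 32.03 CPM in the lone and 51.7, 47.6 and 51.7 CPM in the co-cultured knockout (a log2 change of 0.56 with an SE of 0.11, adjusted p in edgeR = 0.00755), the same direction as its cyclin CCNE1. TICRR, which brings CDC45 to origins, was lower (a log2 change of -1.11 with an SE of 0.17, adjusted p in edgeR = 0.00176), and so was SKP2, the ubiquitin ligase subunit that marks CDT1 among others (a log2 change of -1.18 with an SE of 0.24, adjusted p in edgeR = 0.00893). RNASEH2A, next in order among the genes with higher values, was not called (0.87, edgeR adjusted p = 0.178). None of the 40 was called by edgeR between the control groups or in the interaction, where 1 and 14 had an unadjusted p under 0.05 (2.5% and 35%, against 3.22% and 18.7% of all genes). DESeq2 called 0 of them between the control groups, and 1 higher and 3 lower in the interaction, where it called 3.26% and 1.69% of all genes.

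Several members may share reads with neighbours or copies. Exons of 22 members overlap another gene, and the counting strand is not given in the sources used here. The largest overlaps were 37.05% of exon length in CCNE2, 35.1% in POLA2, 22.7% in MCM2, 21.2% in GINS4 and 14.85% in PRIM1. Pseudogene rows stand in the table for 9 members, ORC1, DBF4, PCNA, RFC3, RFC5, POLD2, RPA2, RPA3 and FEN1, and the counts of these members are less certain for that reason.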

How the data were processed

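Per the submitters' processing notes, FastQC, STAR 2.7.9a, featureCounts, R 4.2.1 and DESeq2 1.36.0 were used with GRCh38 (hg38); their roles, the annotation and the strand setting are not given in the sources used here. The authors deposited raw counts per Ensembl gene for 61541 genes in 12 libraries, used here as deposited. Columns were matched to samples by name.

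Genes were kept with filterByExpr (16768) and tested with edgeR 4.0.16 in R 4.3.3: TMM scaling, 1 model of 4 group means over all 12 libraries, the robust quasi-likelihood F-test and Benjamini-Hochberg adjustment over all genes tested. A call is an adjusted p under 0.05. SE is the size of the log2 fold change over the square root of F. The script was tested on simulated data. Library totals of 14921371 to 35723762 set the counting precision. Replicates differed by a chi-square of 8.31 to 130 per gene, so no library was counted as a repeat.

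Symbols came from a gene name table (42045 matched), positions, exon lengths and GC from GENCODE 29, and promoters from RefSeq. Full statistics went to the 2 members of each role with the smallest p in knockout against control alone, to at most 6 called members elsewhere, and to 2 other replication genes per direction. Alternatives were DESeq2 size factors, library size only, DESeq2 1.42.0, no filter, only the groups compared, a replicate block, GC offsets (lowess span 0.3), the last 2 together, and leaving out each library. The members and lists were chosen with earlier results of these data known. The labels name no batch.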

Additional observations from a re-analysis of the deposited data

Results flagged for a closer look

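ORC1, the origin recognition subunit, was singled out because its difference between co-cultured and lone cells was not the same in knockout as in control cells by the interaction test: -0.96 on the log2 scale (SE 0.21, edgeR adjusted p = 0.0402). Co-culture went with a value of -0.98 in knockout cells, where all 3 co-cultured libraries lay below all 3 lone ones, and with -0.03 in control cells, where the groups overlapped. The interaction lost its call in 14 of 19 alternatives, with adjusted p from 0.00253 to 0.125. Knockout and the origin of the culture cannot be told apart in this test, and the companion of the control cells is not given.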

How the results depend on the processing

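Against 11 members called between co-cultured and lone knockout (21.6%, and 11.4% of all genes), 17 were called by DESeq2's Wald test (33.3%, and 20% of all genes). With only the groups compared 1 was called (1.96%, and 4.22% of all genes), and with GC offsets 29 (56.9%, and 30%). Leaving out a library gave 1 to 18, where 3.13% to 33.4% of all genes were called. With library size only 8 were called (15.7%), 5 lower and 3 higher, where 2.56% of all genes were lower and 5.9% higher. Against 1 member called in the interaction (1.96%, and 1.8% of all genes), 0 were called with DESeq2 size factors (1.82% of all genes) and 0 with library size only (1.8%). DESeq2's Wald test called 2 (3.92%, and 4.95% of all genes). Without the filter on low counts 5 were called (9.8%, and 3.52%), and with GC offsets 10 (19.6%, and 9.26%). Leaving out a library gave 0 to 10, where 0.683% to 21.3% of all genes were called. The value of PCNA between knockout and control alone turned to -0.037 with GC offsets. The cause was not tested. Calls in knockout against control numbered 25 to 40 alone (49% to 78.4%) and 33 to 44 in co-culture (64.7% to 86.3%), over 14 alternatives each. All genes were called at 26.4% to 63.6% and 23.3% to 63.3% there, least without the filter on low counts. Between the control groups 0 members were called in all 14. Library size only moved the median of all genes from 0.09 to 0.24 for knockout against control alone. Over the alternatives, the members' median ran from -0.74 to -0.44 in that comparison and from -0.98 to -0.77 in co-culture, from -0.24 to -0.02 between co-cultured and lone knockout, from -0.05 to 0.08 between the control groups and from -0.23 to 0.02 in the interaction.

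Replicate numbers did not pair the libraries across all 4 groups. Deviations of same-numbered libraries correlated at -0.603 to 0.491, with 7 of 18 pairs over 0.1, against 14 of 36 pairs of different number. Outside the co-cultured knockout, pairs of replicate 1 lay at 0.189 to 0.491 and pairs of replicate 3 at 0.308 to 0.412. Those of replicate 2 lay at -0.0735 to -0.0242. Same-numbered pairs with a co-cultured knockout library lay at -0.603 to 0.138. A link by number in part of the libraries is thus not excluded. With a replicate block 4 members were called between co-cultured and lone knockout (7.84%) and 0 in the interaction, where 6.44% and 1.07% of all genes were. With the replicate block and GC offsets together 25 and 8 were called (49% and 15.7%), where 25.7% and 6.02% of all genes were. PCNA in knockout against control alone then stood at -0.036. The replicate block by itself kept 30 calls alone and 35 in co-culture (58.8% and 68.6%), where 54.1% and 46.4% of all genes were called. Low counts limit CCNE2, CDC7 and POLE2 most.

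Over all genes, calls between co-cultured and lone knockout numbered 1907, and from 536 without replicate 1 to 5681 without replicate 3 of the co-cultured knockout.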
